A study of Mus musculus with 4 samples.

Results

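Ahnak, 5 annexin genes (Anxa1, Anxa2, Anxa4, Anxa5 and Anxa6) and 4 S100 genes (S100a4, S100a6, S100a10 and S100a11) were followed through RNA-Seq libraries of 2 kinds of mouse B cell. These are 10 of the 20599 gene symbols in the files. Ahnak was chosen by its expected count, which was above that of any other gene in the B1a libraries, so its difference between the cell types is given as a description and without a test. The other 9 were listed by name. The series given here compared wild-type peritoneal B1a cells, sorted as CD23- IgM+ CD5+ B cells (n = 2), with wild-type follicular B cells of the spleen, the conventional B2 cells, sorted as IgD high IgM low CD21+ (n = 2). All mice were C57BL/6, no agent was given, and the methods describe the animals as littermate controls of mice that lacked Dnmt3a in the B lineage. The labels put all 4 libraries at 4 weeks of age, whereas the methods give the follicular cells an older age, so that cell type, tissue and age cannot be told apart. In bulk RNA, a change in the number of cells of a type and a change in RNA per cell cannot be told apart either.

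AHNAK is a very large scaffold protein built of repeats that lies under the plasma membrane. It is known to bind a complex of annexin A2 with S100A10, and to contact the beta subunits of L-type calcium channels. Annexins bind acidic phospholipids when calcium rises and take part in membrane repair, vesicle traffic and the anchoring of actin. S100 proteins are small EF-hand proteins, most of which bind calcium and then hold a target, often an annexin. B1a cells are an innate-like B cell type of the serous cavities, and follicular B2 cells are the naive cells that enter germinal centres in T cell-dependent responses.

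The 4 libraries held from 11032732 to 18588623 counts. The floor of detection was taken as 3 counts, which corresponded to between 0.161 and 0.272 on the counts-per-million (CPM) scale before TMM factors. The B1a replicates were less alike than the B2 replicates, with a Pearson correlation of log2 CPM across tested genes of 0.836 against 0.966. Among the genes of the sort markers, Cd5 was at 15.9 and 22.4 CPM in B1a cells against 5.47 and 2.25 CPM in B2 cells. It did not pass (adjusted p = 0.145 by edgeR's quasi-likelihood test, Benjamini-Hochberg). Fcer2a, which encodes CD23, was at 63.7 and 60.9 against 934 and 896 CPM, and Cr2, which encodes CD21, at 98.4 and 92.0 against 968 and 1045 CPM. The summed level of 5 B1a markers was 1182 and 893 CPM in B1a cells and 75.8 and 75.3 CPM in B2 cells. Its largest parts in B1a cells were Bhlhe41 (443 and 349.9 CPM) and Zbtb32 (298 and 245 CPM), which were not sort markers. The sum of 3 genes listed as follicular markers was 182 and 163 against 1955 and 1996 CPM. These include Cd93 (20.3 and 10.2 against 52.9 and 54.9 CPM), whose product AA4.1 the methods list as negative for splenic B2 cells. Markers of other cells were present too. Summed erythroid markers were 78.8 and 504 CPM in B1a cells and 36.1 and 80.8 CPM in B2 cells, with B1a replicate 2 apart from the rest, and the haemoglobin gene Hba-a2 was called higher in B1a cells (35.6 and 96.6 against 5.05 and 7.46 CPM). The summed level of 15 macrophage markers was 319.7 and 330.0 CPM in the B1a libraries against 147 and 148 CPM in the B2 libraries, and 7 of the 15 did not overlap and were higher in B1a cells. Lyz2 was called higher in B1a cells (127 and 136 against 16.8 and 27.2 CPM, adjusted p = 0.00764 by edgeR's quasi-likelihood test, Benjamini-Hochberg), and Emr1 (27.7 and 39.0 against 8.24 and 11.9 CPM), Cd68, Cd14 and the C1q genes C1qa, C1qb and C1qc were above B2 cells in both libraries without passing. Of the other defining macrophage markers, Fcgr1 was at 0 in both B1a libraries, Gata6 at no more than 0.0899 CPM and Timd4 at no more than 0.54 CPM. Summed mast cell markers were 46.1 and 16.5 CPM in B1a cells against 1.47 and 0.941 CPM in B2 cells. Macrophages and mast cells also express several annexin and S100 genes. The part of macrophages, mast cells and erythroid cells in the differences below was not tested. Across all genes, 12078 passed the filter on low counts, and edgeR's quasi-likelihood test, with p-values adjusted over all of them by the Benjamini-Hochberg method, called 693 at an adjusted p under 0.05, of which 512 had the higher level in B1a cells and 181 in B2 cells. All 10 genes passed the filter.

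Ahnak was the most counted gene in both B1a libraries, with 172134 counts in replicate 1 and 176031 in replicate 2, against 6305 and 13204 counts in the B2 libraries. Ahnak lies on chromosome 19 (8989284-9076935, plus strand, GRCm38, the mm10 build). After scaling by library total and TMM factor, the Ahnak level was 15430 and 15831 CPM in B1a cells and 547 and 690.2 CPM in B2 cells. Both B1a libraries were thus far above both B2 libraries, and the replicates of each cell type lay close to each other. The mean was 15630 ± 283 CPM (SD, n = 2) in B1a cells and 619 ± 101 CPM (SD, n = 2) in B2 cells, which is a difference of 4.66 ± 0.14 (SE) on the log2 scale, or 25.3-fold. A single gene took 1.49% of all counts of B1a replicate 1 (95% Wilson interval 1.48% to 1.49%) and 1.52% of replicate 2 (1.52% to 1.53%), compared with 0.0571% (0.0558% to 0.0586%) and 0.071% (0.0698% to 0.0723%) in the B2 libraries. In B2 cells it ranked 234th and 158th by count. These intervals cover counting error only.

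The count of Ahnak grows with the length of its transcript. The longest annotated form (Ahnak-202 in GENCODE M21) has 18100 bases, of which a single exon of 17498 bases makes up 96.7%, and the other annotated forms run from 830 to 2200 bases. The mean transcript length that the authors' quantification assigned to Ahnak was 17872 and 17994 bases in the B1a libraries and 18015 and 18100 bases in the B2 libraries, so the long form carried nearly all of the estimate in each. In TPM (transcripts-per-million), which divides by length, Ahnak stood at 2001 and 1989 in B1a cells and at 82.8 and 102 in B2 cells. By TPM it was the 76th and 82nd gene of the B1a libraries, and the 2529th and 1957th of the B2 libraries. The next 4 genes by count in B1a cells were Macf1, which links actin with microtubules, Cd74, the invariant chain of MHC class II, Eef1a1, a translation elongation factor, and Actb. By TPM, Cd74 ranked first in all 4 libraries. Macf1, another giant cytoskeletal gene, dropped from ranks 2 and 4 by count to ranks 143 and 166 by TPM in B1a cells.

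**Figure D1:**
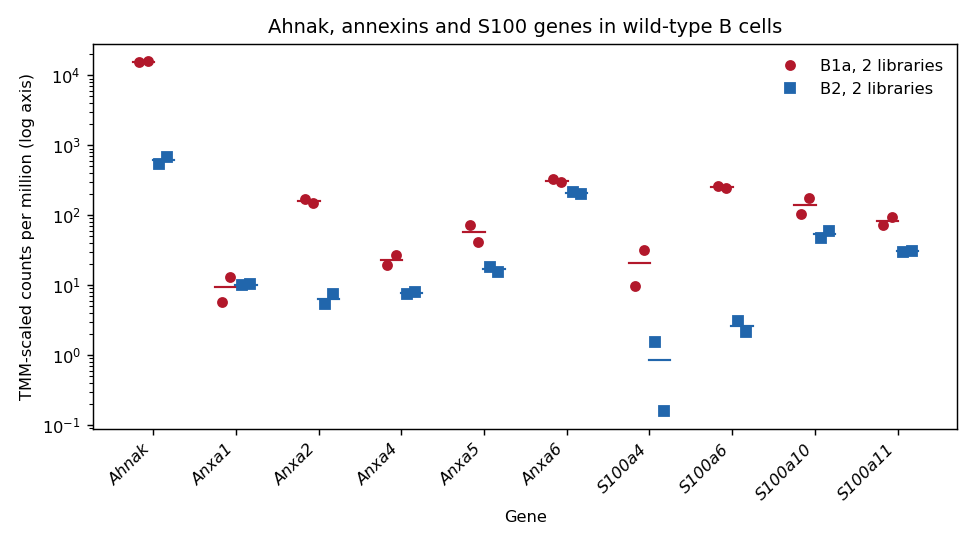
TMM-scaled CPM (log axis) of the 10 genes in each of the 4 libraries, with red circles for B1a, blue squares for B2 and a short line at the mean of each pair. The 2 cell types overlap for Anxa1 alone, and Ahnak stands above the other 9 genes in both cell types on this scale, which is not corrected for length.

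Of the 9 genes other than Ahnak, 3 were called higher in B1a cells (Anxa2, S100a6 and S100a11) and 0 were called higher in B2 cells, beside 4.24% and 1.5% of all tested genes. At an unadjusted p under 0.05 the same test had 8 of the 9 higher in B1a cells and 0 lower. The share of all tested genes at that unadjusted level was not taken, so this count has no background. DESeq2 called 8 and 0 of the 9, beside 1040 and 570 of the 12493 genes to which it gave an adjusted p. When B1a replicate 1 or 2 was left out, edgeR called 8 of the 9, but also 3953 of 12766 and 6143 of 12575 genes in all, with the lone B1a library taken to vary like the B2 pair. Without B2 replicate 1 or 2 it called 4 and 3 of the 9. Both B1a libraries were above both B2 libraries for 8 of the 9, beside 25.3% of all tested genes. Both B2 libraries were above both B1a libraries for 0 of the 9, beside 29.1% of all tested genes. The median log2 fold change of the 9 was 1.58 and that of all tested genes -0.03. These genes were chosen with earlier results of these libraries known, so the counts describe them and are not independent evidence of their direction. The methods name 2 control mice for each cell type, and p-values measure the spread between these samples only.

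Anxa2 encodes the annexin that pairs with S100A10 in a tetramer at the inner face of the plasma membrane. The gene lies on chromosome 9 (69453683-69491792, plus strand), and its level was 168 and 149 CPM in B1a cells and 5.36 and 7.42 CPM in B2 cells. The groups were far apart and neither pair of replicates spread much. Anxa2 rose 24.5-fold in B1a cells (158 ± 13.5 against 6.39 ± 1.46 CPM, SD, n = 2 each), or by 4.61 ± 0.26 (SE) on the log2 scale, with an adjusted p of 0.0013 by edgeR's quasi-likelihood test, Benjamini-Hochberg. On the TPM scale Anxa2 was at 298 and 257 in B1a cells and at 11.2 and 15.2 in B2 cells.

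S100a10 encodes the partner of annexin A2, an S100 protein that does not bind calcium and is held in its active shape. It lies on chromosome 3 (93555117-93564645, plus strand). Its level was 105 and 176 CPM in B1a cells and 47.9 and 58.5 CPM in B2 cells. The groups did not overlap, but the B1a replicates differed from each other 1.68-fold. The log2 fold change of S100a10 was 1.40 ± 0.29 (SE, 2.65-fold), and its adjusted p of 0.0528 (edgeR's quasi-likelihood test, Benjamini-Hochberg) missed the threshold. It passed under 6 of 10 other settings, with an adjusted p from 1.72e-05 (edgeR with a replicate block) to 0.104 (limma on log2(TPM + 0.1)). With 1 library left out, its log2 fold change ran from 0.98 to 1.72.

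Within a library, the transcripts of the pair were thus in a different proportion. S100a10 had 20.2 and 17.8 TPM for each TPM of Anxa2 in the B2 libraries and 1.42 and 2.68 in the B1a libraries. The proportion of Ahnak to Anxa2 stayed within a narrow range, at 6.73 and 7.73 TPM of Ahnak per TPM of Anxa2 in B1a cells and 7.40 and 6.71 in B2 cells. Across the 4 libraries, the gene whose centred log2 CPM lay nearest to that of Ahnak, among the 8901 tested genes whose mean reached 10 CPM, was Anxa2 (Euclidean distance 0.181). The next nearest were Nr3c2, the mineralocorticoid receptor (0.319), Diras2, a small GTPase (0.326), Serpina3f, a serine protease inhibitor (0.357), and Tbc1d9, a protein with a TBC domain (0.395). Nr3c2, for instance, was at 112 and 96.0 CPM in B1a cells and 4.25 and 5.28 CPM in B2 cells. The libraries are 4 in 2 groups. A gene therefore lies near when its difference between the cell types is close to that of Ahnak and its replicates spread little. The distances of the other members that reached the level cut ran from 1.98 (S100a6) to 4.116 (Anxa6).

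Promoter sequence was taken from the RefSeq table of GRCm38.p6, which covers the 250 bases before and 50 after each start. It held 9 promoters of 8 of the 10 genes, all but Anxa6 and S100a10. The letters TGANTCA, which read the same on both strands and are the core that AP-1 proteins recognize, were in 7.81% of all 32851 promoters and in those of Anxa2 and S100a11. The windows that follow, on the plus strand, show why these 2 genes are singled out, with the matching letters in capitals and 10 bases on either side.

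Anxa2, chr9:69453578-69453604: ccaagttggaTGAGTCAcccagcaggg
S100a11, chr3:93520350-93520376: agagacctgtTGAGTCAcagggactac
S100a11, chr3:93520448-93520474: gggcacagccTGAGTCAggctgagggg

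In Anxa2 the letters end 88 bases before the start, and in S100a11 the pair of matches end 129 and 31 bases before it. The other motifs searched were CACGTG, which also reads the same on both strands, and GGGCGG, and they were in 7.15% and 35.7% of all promoters. No match of either overlapped a TGANTCA match in these genes. CACGTG was found in S100a6 (past the start) and S100a11, and GGGCGG, searched on both strands, in Ahnak, Anxa2, Anxa4 and S100a11. A match of letters is a description and says nothing about binding in these cells.

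S100a6 encodes calcyclin, which binds annexins and the ubiquitin ligase adaptor CACYBP. It lies on chromosome 3 (90612894-90614414, plus strand). Its counts were 2969 and 2721 in the B1a libraries and 35 and 41 in the B2 libraries, or 266 and 245 CPM against 3.04 and 2.14 CPM. Both B2 values were well above the floor of 3 counts and both were far below the B1a values. S100a6 rose 100.3-fold (255 ± 15.2 against 2.59 ± 0.631 CPM, SD, n = 2 each), or by 6.65 ± 0.25 (SE) on the log2 scale, with an adjusted p of 0.000462 by edgeR's quasi-likelihood test, Benjamini-Hochberg, the widest difference among the 10 genes. By TPM it stood 141st and 153rd among all genes in B1a cells (952 and 854 TPM) and 8667th and 9199th in B2 cells (12.8 and 8.87 TPM).

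S100a4 encodes a protein that binds non-muscle myosin heavy chain (MYH9). It lies before S100a6, with S100a5 between them (chromosome 3, 90603770-90606045, plus strand). It had 110 and 355 counts in the B1a libraries and 18 and 3 counts in the B2 libraries, the last at the floor. In CPM these were 9.86 and 31.9 against 1.56 and 0.157. The groups did not overlap, while the B1a replicates differed 3.24-fold, more than for any other member. The log2 fold change was 4.64 ± 1.29 (SE), with an adjusted p of 0.113 (edgeR's quasi-likelihood test, Benjamini-Hochberg), so S100a4 did not pass. The log2 fold change moved to 3.60 without B1a replicate 2 and to 6.98 without B2 replicate 1. Under the other settings the log2 fold change ran from 4.37 to 5.34 and the adjusted p from 0.000475 to 0.215, with 4 of 9 passing. GENCODE places another gene, Gm42674, over S100a4 on the same strand. It has no entry of its own in the files, so its reads cannot be told from those of S100a4.

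S100a11 encodes the partner of annexin A1 and lies next to S100a10 (chromosome 3, 93520496-93526288, plus strand). Its level was 72.8 and 94.4 CPM in B1a cells and 29.8 and 30.9 CPM in B2 cells, with no overlap. It rose 2.76-fold, with a log2 fold change of 1.46 ± 0.25 (SE) and an adjusted p of 0.0281 (edgeR's quasi-likelihood test, Benjamini-Hochberg). S100a11 passed under all 10 other settings, but not without B2 replicate 1 (adjusted p = 0.126) or without B2 replicate 2 (0.107, same test), where the size was 1.43 and 1.48 on the log2 scale.

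Anxa5, whose product binds exposed phosphatidylserine, was at 72.1 and 41.1 CPM in B1a cells and 18.4 and 15.3 CPM in B2 cells (chromosome 3, 36448923-36475887, minus strand). Anxa4, an annexin of epithelial and secretory membranes, was at 19.4 and 27.0 CPM against 7.46 and 8.05 CPM (chromosome 6, 86736840-86793634, minus strand). In both genes the B1a libraries were above the B2 libraries, and in both the B1a replicates were further apart than the B2 replicates. The log2 fold changes were 1.75 ± 0.37 for Anxa5 (adjusted p = 0.056) and 1.58 ± 0.49 for Anxa4 (adjusted p = 0.144; SE, edgeR's quasi-likelihood test, Benjamini-Hochberg), so neither passed. Anxa5 passed under 6 of 10 other settings and Anxa4 under 1 of 10. With 1 library left out, the log2 fold change ran from 1.29 to 2.10 for Anxa5 and from 1.32 to 1.79 for Anxa4.

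Anxa6, an annexin with a doubled core, was the most expressed annexin in B2 cells by TPM (228 and 210.3) and close to Anxa2 in B1a cells (289.9 and 259.9). It lies on chromosome 11 (54978953-55033471, minus strand). In CPM it was at 325 and 297 in B1a cells and at 217 and 203 in B2 cells, close within each pair and without overlap. The log2 fold change was 0.57 ± 0.13 (SE, 1.48-fold), with an adjusted p of 0.0671 (edgeR's quasi-likelihood test, Benjamini-Hochberg). It fell under the threshold in 6 of 10 other settings, and with 1 library left out the log2 fold change ran from 0.50 to 0.63. On TPM the value was 0.32, but on that scale the median of all tested genes moved from -0.03 to -0.30, so that the distance of Anxa6 from the median hardly changed.

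Anxa1, known as a mediator of resolving inflammation, was the 1 member whose groups overlapped. It lies on chromosome 19 (20373434-20390671, minus strand), and its level was 5.74 and 13.2 CPM in B1a cells and 9.89 and 10.4 CPM in B2 cells. The B1a libraries lay on either side of the B2 libraries. The log2 fold change was -0.09 ± 0.72 (SE), with an adjusted p of 0.963 (edgeR's quasi-likelihood test, Benjamini-Hochberg), and it was 0.38 without B1a replicate 1. At this spread a difference was not detectable, which does not show that the levels were equal.

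**Figure D2:**
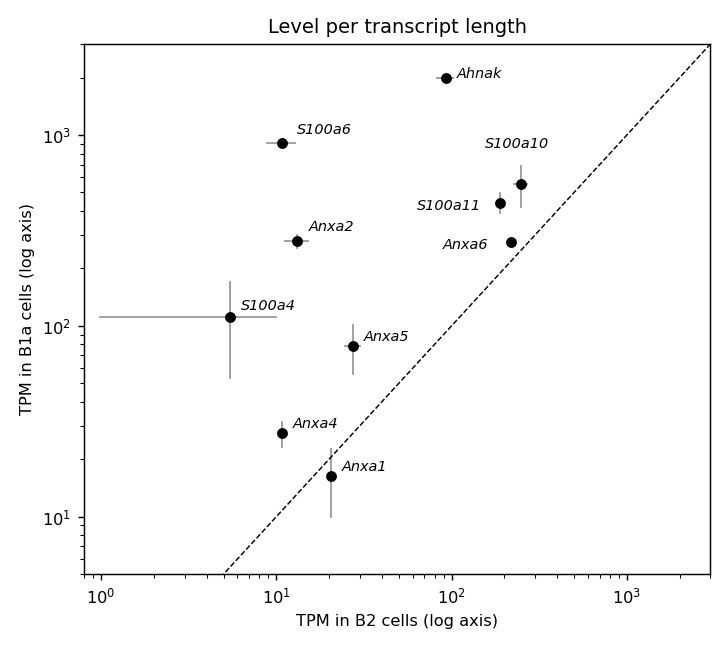
Mean TPM of the 10 genes in B2 cells (horizontal, log axis) and B1a cells (vertical, log axis), with grey bars from the lower to the higher replicate and a dashed line of equal level. Ahnak, S100a6, Anxa2 and S100a4 lie well above the line, whereas Anxa6 (275 against 219 TPM) and Anxa1 (16.3 against 20.6 TPM) lie near it.

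The order of the members per length differed between the cell types. In B2 cells S100a10 (mean 248 TPM), Anxa6 (219) and S100a11 (189.7) led, followed by Ahnak (92.6), Anxa5 (27.5), Anxa1 (20.6), Anxa2 (13.2), Anxa4 (10.8), S100a6 (10.8) and S100a4 (5.47). In B1a cells the order was Ahnak (1995 TPM), S100a6 (903), S100a10 (555), S100a11 (442), Anxa2 (277), Anxa6 (275), S100a4 (111), Anxa5 (78.4), Anxa4 (27.4) and Anxa1 (16.3). Several neighbours were not apart beyond their replicates. In B1a cells the replicate ranges of S100a10 and S100a11 overlapped, as did those of Anxa2 and Anxa6 and those of S100a4 and Anxa5. In B2 cells the ranges of S100a10 and Anxa6 overlapped, and that of S100a6 overlapped with those of Anxa2, Anxa4 and S100a4.

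The remaining annexin genes give the background of the family. The files hold 12 annexin genes, of which 9 had a count, 8 passed the filter and 2 were called, both higher in B1a cells (Anxa2 and Anxa11). Anxa11, which tethers RNA granules to lysosomes, was at 161 and 156 CPM in B1a cells against 82.2 and 73.9 CPM. It rose by 1.02 ± 0.16 on the log2 scale (SE, adjusted p = 0.0227 by edgeR's quasi-likelihood test, Benjamini-Hochberg), and the adjusted p was 0.0711 without B2 replicate 1 and 0.199 without B2 replicate 2 (same test; 3.44e-08 to 0.199 over the 4 libraries left out). Anxa7 (0.73, adjusted p = 0.341) and Anxa9 (1.25, adjusted p = 0.528, same test) did not pass. Anxa3 had counts in B2 replicate 1 only, under the floor, and Anxa8, Anxa10 and Anxa13 were listed at 0 counts in all 4 libraries. Groups did not overlap and B1a was higher in 7 of the 8 tested annexins, whose median log2 fold change was 1.14, beside 25.3% of all tested genes without overlap and 4.24% called higher in B1a cells.

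The annexins summed to 932 and 873 TPM in the B1a libraries and to 450.3 and 413 TPM in the B2 libraries. Their composition differed. Anxa2 made up 31.9% and 29.5% of annexin TPM in B1a cells and 2.48% and 3.69% in B2 cells, whereas Anxa6 made up 31.1% and 29.8% in B1a cells and 50.7% and 50.9% in B2 cells. Anxa11 held a like share in both, at 17.2% and 17.3% against 21.3% and 20.6%.

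Most S100 genes form a cluster on chromosome 3, with S100a10 and S100a11 further along it, while S100b (chromosome 10), S100z (chromosome 13) and S100g (chromosome X) lie elsewhere. Of 16 listed S100 genes, 10 had a count, 7 passed the filter and 2 were called, both higher in B1a cells (S100a6 and S100a11). Their median log2 fold change was 1.58, and B1a was higher without overlap in 6 of the 7, beside the same 4.24% called and 25.3% without overlap among all tested genes. In the cluster, genes with and without counts lay side by side in B1a cells. From lower to higher coordinates, S100a1 had 109 and 42 counts, S100a13 had 242 and 93, and S100a14, S100a16, S100a3 and S100a2, the last not among the 16, were at 0. Then came S100a4 with 110 and 355, S100a5 at 0, S100a6 with 2969 and 2721, and S100a7a, S100a8 and S100a9 at 0. S100a1 and S100a13 overlap on opposite strands, and the strand setting of the counting is not given in the sources used here, so their reads may not be separate. Neither passed (log2 fold change 2.60, adjusted p = 0.294, and 1.58, adjusted p = 0.316, edgeR's quasi-likelihood test, Benjamini-Hochberg).

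S100a8 and S100a9, the calprotectin subunits of neutrophils, had counts in the B2 libraries only. S100a8 was at 0 in both B1a libraries and had 5 and 37 counts in the B2 libraries, and S100a9 was at 0 against 7 and 90 counts. Neither passed the filter, so no test was made. Other neutrophil markers were near 0 in B2 cells (Retnlg and Mpo at no more than 0.173 CPM, Elane at 0). S100g, a calcium-binding protein of gut and kidney, had 0 and 38 counts in B1a cells and 12 and 15 in B2 cells, so that its direction rested on 1 library (log2 fold change 0.90, adjusted p = 0.879, edgeR's quasi-likelihood test, Benjamini-Hochberg), and it was negative in 5 of 9 other settings. S100b had at most 7 counts in a library.

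S100 genes summed to 1937 and 2270 TPM in the B1a libraries and to 481 and 546 TPM in the B2 libraries. S100a6 accounted for 49.1% and 37.6% of this in B1a cells and for 2.66% and 1.63% in B2 cells. In B2 cells S100a10 (46.9% and 49.7%) and S100a11 (39.0% and 35.1%) made up most of it, and in B1a cells they held 21.8% and 30.4%, and 20.2% and 21.8%. All 10 members together came to 4540 and 4821 TPM in B1a cells and to 819 and 858 TPM in B2 cells.

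**Figure D3:**
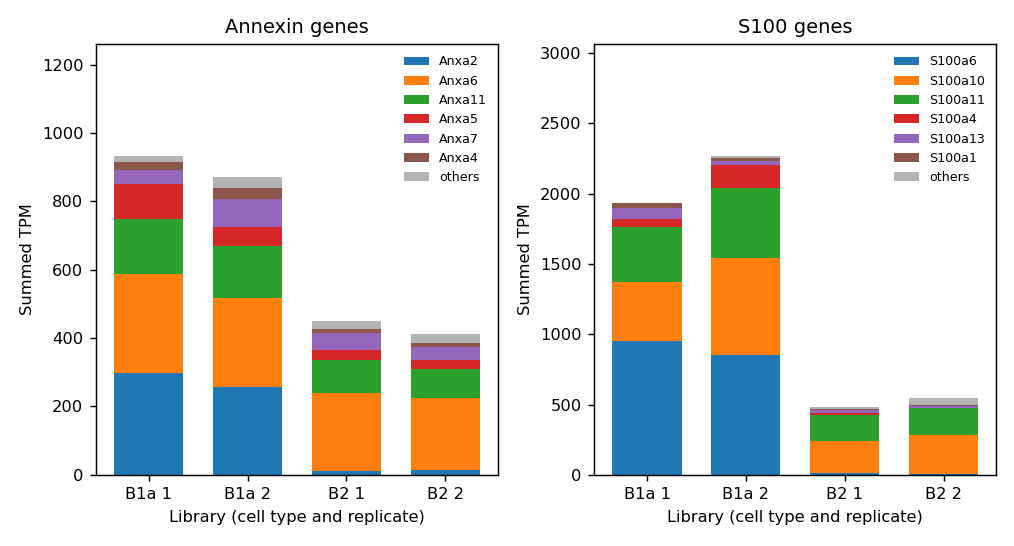
Summed TPM of the annexin genes (left) and S100 genes (right) in each library, stacked by gene from 0. The annexin bars reach 932 and 873 TPM in B1a and 450.3 and 413 TPM in B2, and the S100 bars 1937 and 2270 against 481 and 546 TPM, with Anxa2 and S100a6 as wide bands in the B1a libraries alone.

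**Figure D4:**
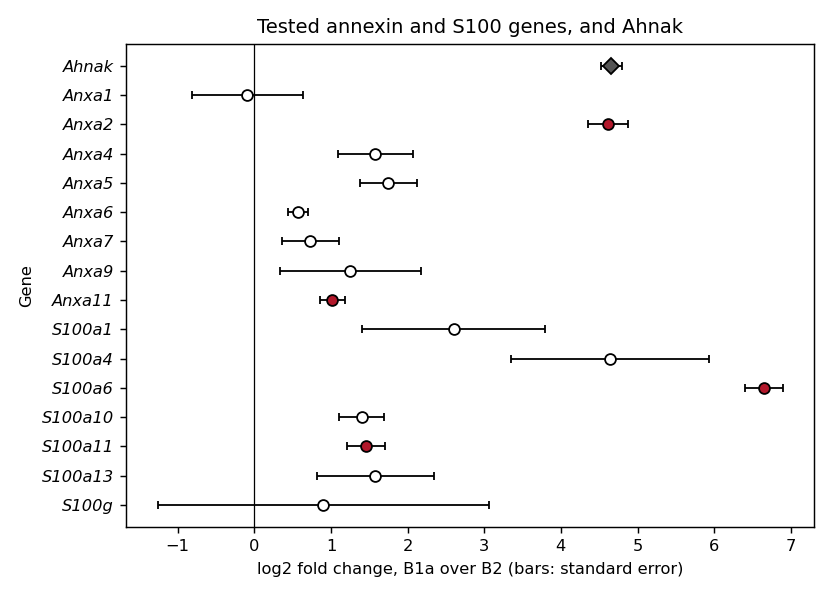
Log2 fold change of B1a over B2 (horizontal) for Ahnak and the tested annexin and S100 genes, with bars of 1 standard error. Red circles mark an adjusted p under 0.05 in edgeR's quasi-likelihood test, open circles the other tested genes and the grey diamond Ahnak, for which no test is given. Anxa2, Anxa11, S100a6 and S100a11 are red, and Anxa1 (-0.09) is the 1 value under 0.

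Genes whose products work with AHNAK, annexins and S100 proteins were examined as fixed lists, whose counts stand beside 4.24% of all tested genes called higher in B1a cells and 1.5% in B2 cells. In the list of membrane repair genes, 1 of 15 tested genes was called, with a higher level in B1a cells, and the median log2 fold change was 0.15. At an unadjusted p under 0.05 there were 3 genes higher in B1a cells and 1 in B2 cells, and DESeq2 called 3 and 1. The share of all tested genes at that unadjusted level was not taken, so these unadjusted counts have no background. The called gene was Capn2, a calcium-activated protease, at 102 and 99.5 CPM in B1a cells and 20.4 and 14 CPM in B2 cells (log2 fold change 2.56 ± 0.28, SE, adjusted p = 0.00703, edgeR's quasi-likelihood test, Benjamini-Hochberg). The ferlin Myof was at 8.70 and 7.46 CPM in B1a cells against 31.3 and 27.9 CPM and did not pass (log2 fold change -1.87, adjusted p = 0.0654, same test), and Dysf was at or under 1.10 CPM in every library.

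Of the 7 tested L-type calcium channel genes, 0 were called in either direction by edgeR, and DESeq2 called 1, higher in B1a cells. At an unadjusted p under 0.05 there were 3 higher in B1a cells and 0 in B2 cells, again without a background share. The median log2 fold change was 1.70. Without overlap, 4 were higher in B1a cells and 2 in B2 cells, beside 25.3% and 29.1% of all tested genes. The pore-forming Cacna1s, for instance, was at 7.89 and 17.5 CPM in B1a cells against 0.954 and 0 CPM (adjusted p = 0.215, edgeR's quasi-likelihood test, Benjamini-Hochberg). Cacna1d, a pore-forming subunit with the highest mean over the 4 libraries but not within B1a cells, was at 1.88 and 19.3 CPM in B1a cells and 36.9 and 33.4 CPM in B2 cells. This was a log2 fold change of -1.73 (adjusted p = 0.388, edgeR's quasi-likelihood test, Benjamini-Hochberg), and moved to -0.86 without B1a replicate 1 and -4.22 without B1a replicate 2. The beta subunits that AHNAK contacts were low. Cacnb1 was at 19.8 and 21.2 CPM in B1a cells and 9.46 and 3.24 CPM in B2 cells, and Cacnb4 at 25.9 and 4.23 against 3.82 and 3.24 CPM. Going the other way, Cacnb2 was at 0.717 and 0.45 against 0.72 and 0.977 CPM, and Cacnb3 at 0 in both B1a libraries against 0.434 and 2.46 CPM. Cacnb2 and Cacnb3 did not pass the filter. Neither Cacnb1 (adjusted p = 0.236) nor Cacnb4 (adjusted p = 0.321, same test) passed.

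A list drawn up for the transport of phosphatidylserine, the lipid that annexin A5 binds, also held flippases of other phospholipids, such as Atp8b2. Its genes went in both directions, with 3 of 11 called for a higher level in B1a cells, 1 for a higher level in B2 cells and a median of 0.06. The scramblase-like gene Plscr1 rose from 4.16 and 2.46 CPM in B2 cells to 62.0 and 83.7 CPM in B1a cells (log2 fold change 4.47 ± 0.41, SE, adjusted p = 0.00432, edgeR's quasi-likelihood test, Benjamini-Hochberg). The flippase genes Atp11a (4.87, adjusted p = 0.0158) and Atp8b2 (1.42, adjusted p = 0.0161) were also higher in B1a cells, and Atp8a1 was lower (-1.13, adjusted p = 0.0201, same test). Of 9 tested partners and receptors, 1 was called, Prkca, a calcium-dependent protein kinase C (log2 fold change 1.62, adjusted p = 0.0117, same test). With limma on log2(TPM + 1), Atp11a, Atp8b2 and Prkca did not pass. Myh9, the myosin that S100A4 binds, was at 2451 and 1968 CPM in B1a cells against 2655 and 2500 CPM (adjusted p = 0.412), and Cacybp was at 70.2 and 60.9 against 34.0 and 59.9 CPM (adjusted p = 0.49, same test).

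In the cortical cytoskeleton list 7 of 16 genes were called, all 7 higher in B1a cells, with a median of 0.28. DESeq2 called 8 with the higher level in B1a cells and 2 with the lower. Among them were Vim, Plec, Flna, Actn1, Vcl and Iqgap1. Vimentin, an intermediate filament protein, was at 1422 and 2096 CPM in B1a cells and 192 and 211 CPM in B2 cells (log2 fold change 3.13 ± 0.21, SE, adjusted p = 0.00178, edgeR's quasi-likelihood test, Benjamini-Hochberg). The actin crosslinker Actn1 was at 141 and 155 against 16.1 and 18.2 CPM (3.10 ± 0.21, adjusted p = 0.0018, same test).

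A list of genes that often accompany S100a4, S100a6 and S100a10 in effector and memory lymphocytes had 9 of 12 called for a higher level in B1a cells, 1 for a higher level in B2 cells and a median of 2.63. Crip2, a LIM domain protein, was at 20.6 and 26.4 CPM in B1a cells and 0.695 and 0.157 CPM in B2 cells (5.83 ± 0.94, adjusted p = 0.0244, edgeR's quasi-likelihood test, Benjamini-Hochberg), and it passed in 6 of 9 other settings. Itgb1, the integrin beta 1 chain, was at 923 and 679.7 against 40.5 and 41.6 CPM (4.29 ± 0.19, adjusted p = 0.000622), and the galectin Lgals1 at 78.0 and 109.8 against 4.77 and 5.54 CPM (4.18 ± 0.32, adjusted p = 0.00258, same test). Tmsb10, which sequesters actin monomers, was lower in B1a cells, at 197 and 185 against 418 and 398 CPM (-1.10 ± 0.12, adjusted p = 0.00742). This list was chosen with earlier results of these libraries known, and the macrophage gene Lyz2, given above, was also called higher in B1a cells.

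**Figure D5:**
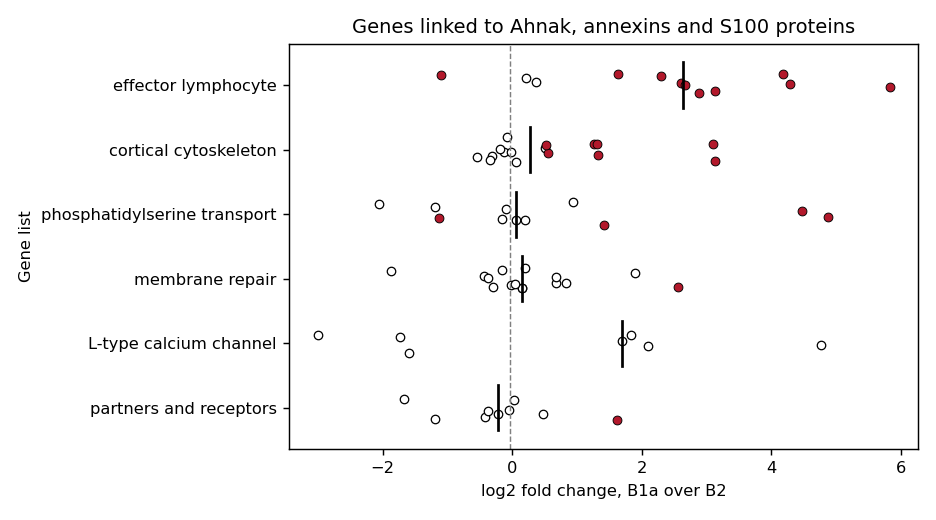
Log2 fold change of B1a over B2 (horizontal) for each tested gene of 6 lists, with red points for an adjusted p under 0.05 in edgeR's quasi-likelihood test, open points for the rest, a thick line at each list's median and a dashed line at the median of all tested genes (-0.03). The medians run from -0.22 for partners and receptors to 2.63 for the effector lymphocyte list, and vertical scatter within a list carries no value.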

How the data were processed

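RNA from sorted cells was sequenced by the authors. The labels name a kit with ribosomal RNA depletion, whereas the study's text speaks of polyadenylated RNA, so which RNA was selected is not settled. Per the labels, reads were aligned to mm10 and quantified with RSEM 1.2.29; the methods give another version, and RefSeq genes. For each gene entry the authors deposited expected counts, not normalized, with reads of several possible entries shared among them. They also deposited TPM, scaled to the same total in each library, a mean transcript length in bases, and a signal value, the posterior standard deviation of each deposited count, which over the 10 genes was at most 4.57 reads and, taken separately, at most 0.647% of a count. The files hold 21970 entries with 20599 symbols. All 10 genes have 1 entry each. Replicates were not pooled.

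Here the expected counts of a symbol were added up and rounded. After filterByExpr and TMM scaling (factors 0.964, 0.963, 1.05 and 1.03), all 4 libraries entered 1 fit of edgeR 4.0.16 (R 4.3.3; quasi-likelihood test) without covariates, Benjamini-Hochberg adjustment over 12078 genes and a threshold of 0.05. Standard errors were derived from the F statistic. The study named EBSeq, which was not run. The code was tested on simulated data. The fold change of a gene with few B2 counts depends on the prior count of the fit. Gene positions and promoters are from RefSeq, and strands, overlapping genes and the Ahnak transcripts from GENCODE M21. Likeness to Ahnak is the distance of centred log2 CPM (prior count 2).

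The members and gene lists were chosen with earlier results of these data known. Named genes are all members, all annexin and S100 genes with a count, up to 3 called genes per list and direction (or the highest-expressed gene), the 5 genes nearest to Ahnak and the 5 most counted in B1a cells; 1 of these is not reported here, and other genes in the text were chosen after their values were seen. Alternatives were DESeq2 1.42.0, upper quartile factors, limma-voom (limma 3.58.1) with and without a weight per cell type, a minimum of 10 counts per library, a minimum of 1 count in at least 1 library, limma on log2(TPM + 1) and log2(TPM + 0.1) for a mean TPM of at least 1, a replicate block, unsummed entries, and each library left out. Replicate numbers were not taken as pairs in the main fit. The methods name as many control mice as libraries of each cell type. Dnmt3a-deficient samples were not analysed here.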

Additional observations from a re-analysis of the deposited data

How the results depend on the processing

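Limits first: 2 libraries per cell type, a low agreement of the B1a pair, and confounded tissue and age set how far these values carry. Ahnak was chosen by its B1a count, so its values here describe it and are not support for its direction. Its log2 fold changes ran from 4.42 to 4.67 over 10 alternative settings and from 4.50 to 4.83 with 1 library left out. Anxa2 and S100a6 passed under all 10 settings. With 1 library left out, their log2 fold changes ran from 4.41 to 4.87 and from 6.38 to 6.89. Over 30 genes and 416 values, 348 kept their direction and side of the threshold, 42 gained a call, 19 lost one and 7 changed sign.

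The number of genes called, 693, became 1610 with DESeq2 (1040 higher in B1a, 570 higher in B2), 1444 with limma-voom weighted by cell type (1087 and 357), 1141 without a filter (779 and 362) and 359 on log2(TPM + 0.1) (196 and 163), against 512 and 181. On log2(TPM + 1) it was 499, of which 266 were higher in B1a cells. The number of called members without Ahnak, 3, became 8 with DESeq2, 6 with limma-voom, 7 with the weighted fit, 6 with at least 10 counts in every library (S100a4 is then not tested) and 7 without a filter. Of annexins, 2 called became 5, 4, 4, 4 and 4 in the same order, and 1 on both TPM scales. Of S100 genes, 2 called became 4 with DESeq2, 4 with the weighted fit and 4 without a filter. The cause was not tested.

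Leaving out 1 library gave 539 to 6143 genes, 3 to 8 members, 1 to 6 annexins and 2 to 7 S100 genes; the high ends came without a B1a library, where the lone B1a library is assumed to vary like the B2 pair, and the 1 annexin came without either B2 library. Anxa1 (-0.09) turned to 0.38 without B1a replicate 1, and its values with 1 library left out ran from -0.82 to 0.38. S100g turned to -1.21 with limma-voom and with the weighted fit, -0.65 on log2(TPM + 1), -2.14 on log2(TPM + 0.1), -1.13 with the replicate block and -6.68 without B1a replicate 2, with a range of -6.68 to 1.90 over the libraries left out.

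Same-numbered samples did not deviate together (correlation -0.0347 over 12078 genes). With 2 libraries per cell type this cannot decide whether the numbers pair the samples, and the main fit did not pair them. The replicate block gave 1481 genes (889 and 592), 7 members, 4 annexins and 4 S100 genes.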
